A study of Mus musculus with 6 samples.

Results

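The genes of pyrimidine breakdown described here are 8 of the 54532 genes in the deposited table: *Cda*, *Upp1*, *Upp2*, *Tymp*, *Dpyd*, *Dpys*, *Upb1* and *Agxt2*. They were chosen by name as enzymes of one pathway, and the pathway was selected on measured values, because *Dpys* was among the largest decreases in KSPAPN kidneys. All 8 had reads in every library and passed the filter on low counts that left 16017 genes for testing. Both groups were male C57BL/6 mice given chow containing 600 mg/kg doxycycline for 4 days, and the whole kidney was taken. KSPAPN mice carry KsprtTA and a TRE-Adiponectin transgene. In them doxycycline switches on adiponectin, a secreted protein of fat tissue, in the kidney epithelium where the Ksp-cadherin promoter drives rtTA. Control mice carry KsprtTA only according to the study's methods, whereas the sample labels give their genotype as WT. Each library is a pool of 3 mice, so the 3 Control and 3 KSPAPN libraries stand for 9 mice per group, the error is a spread between pools, and the age of these mice is not given in the sources used here.

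Pyrimidine nucleosides are trimmed before the ring is opened. Cytidine deaminase (*Cda*) turns cytidine into uridine, uridine phosphorylases 1 and 2 (*Upp1* and *Upp2*) release uracil, and thymidine phosphorylase (*Tymp*) releases thymine. Dihydropyrimidine dehydrogenase (*Dpyd*) then reduces the free base, dihydropyrimidinase (*Dpys*) opens the reduced ring, and beta-ureidopropionase (*Upb1*) cuts the product into ammonia, carbon dioxide and beta-alanine or beta-aminoisobutyrate. Alanine-glyoxylate aminotransferase 2 (*Agxt2*) is a mitochondrial enzyme that uses beta-aminoisobutyrate and methylated arginines as amino donors. Liver and kidney are known as the main sites of the ring-opening steps, and in the kidney these enzymes belong chiefly to the proximal tubule.

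In KSPAPN kidneys *Upb1* and *Cda* fell, by 0.74 and 0.50 on the log2 scale, and none of the members rose. With other ways of processing or a library left out, the call was lost 5 times for *Upb1* and 9 times for *Cda*. *Dpys* had mean levels of 4.31 FPKM in Control and 0.608 FPKM in KSPAPN. FPKM are fragment counts scaled by gene length and library size. *Dpyd*, *Agxt2*, *Upp1* and *Tymp* overlapped between groups, and 0 of these 4 passed the test. Over all genes tested, 2.25% were called lower and 0.393% higher, and 13.1% were lower and 11.4% higher without overlap. In whole tissue, fewer cells of a type and less RNA per cell cannot be told apart.

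The libraries held 17183358 to 18205023 counts in Control and 18150442 to 20871173 in KSPAPN. *Adipoq*, the overexpressed gene, had 2, 0 and 2 counts in the Control libraries and 24629, 17483 and 26811 in the KSPAPN libraries, so every library matched its label. Over all genes tested, edgeR's quasi-likelihood test called 361 lower and 63 higher at an adjusted p under 0.05, and 14.9% of the calls were higher. With scaling by total counts only, 26.7% were higher. Text on the extraction speaks of liver although the tissue label is kidney. The kidney marker *Slc34a1* had a mean of 1212 FPKM in Control and 1085 FPKM in KSPAPN, while *Alb*, the defining transcript of hepatocytes, had 2.56, 2.46 and 1.14 FPKM in Control and 0.275, 4.46 and 4.39 FPKM in KSPAPN. *Cps1* was at 0 in every Control library and at 0.00773, 0.138 and 0.269 FPKM in KSPAPN, and *Tat* at 0 in Control and 0, 0.0682 and 0.0602 FPKM in KSPAPN. *Ahsg* had 0.0246, 0 and 0.0259 FPKM in Control and 0.0391, 0.349 and 0.329 FPKM in KSPAPN. These 4 transcripts, from a list of 9 hepatocyte markers, were thus highest in KSPAPN replicates 2 and 3. The rest of the list did not follow them. *Fga*, *Fgg* and *Apoc3* were highest in a Control library, and *Fgb* and *Apoa2* in KSPAPN replicate 2, with Control replicate 1 next. The part of hepatocyte transcripts in the members' values was not tested.

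The promoters of the members that fell or had lower values without overlap are shown beside those of *Dpyd* and *Agxt2*, whose libraries overlapped, so that the upstream sequence of both kinds can be compared. The windows are RefSeq's, build GRCm38.p6, 300 bases from 250 before to 50 after a transcript start. By symbol 7 of the 8 members matched, with 11 windows, and *Dpys* did not. Capitals mark matches on either strand to CCAAT, to the GC box CCGCCC, to TATAAA or to the HNF4 motif CAAAGTCCA, and no match overlapped another in the windows printed.
Cda, chr4:138367906-138368205, minus strand: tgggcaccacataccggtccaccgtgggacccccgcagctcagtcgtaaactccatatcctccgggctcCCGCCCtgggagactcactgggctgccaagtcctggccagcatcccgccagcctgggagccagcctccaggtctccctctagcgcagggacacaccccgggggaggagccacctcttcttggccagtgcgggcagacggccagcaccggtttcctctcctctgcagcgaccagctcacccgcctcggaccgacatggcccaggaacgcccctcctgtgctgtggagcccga
Upp2, second window, chr2:58754934-58755233, plus strand: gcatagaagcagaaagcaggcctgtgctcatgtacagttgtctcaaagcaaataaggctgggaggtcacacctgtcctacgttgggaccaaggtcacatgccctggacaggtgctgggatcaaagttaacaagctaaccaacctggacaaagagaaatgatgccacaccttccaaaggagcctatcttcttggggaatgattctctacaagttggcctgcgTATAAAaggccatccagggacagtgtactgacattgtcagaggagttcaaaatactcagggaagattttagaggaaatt
Dpyd, chr3:118561930-118562229, plus strand: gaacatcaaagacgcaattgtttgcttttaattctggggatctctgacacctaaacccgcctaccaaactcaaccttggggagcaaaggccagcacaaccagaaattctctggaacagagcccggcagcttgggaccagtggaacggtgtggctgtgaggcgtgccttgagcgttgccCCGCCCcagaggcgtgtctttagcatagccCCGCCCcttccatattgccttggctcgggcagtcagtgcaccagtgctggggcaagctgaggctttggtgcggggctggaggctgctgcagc
Upb1, chr10:75406661-75406960, plus strand: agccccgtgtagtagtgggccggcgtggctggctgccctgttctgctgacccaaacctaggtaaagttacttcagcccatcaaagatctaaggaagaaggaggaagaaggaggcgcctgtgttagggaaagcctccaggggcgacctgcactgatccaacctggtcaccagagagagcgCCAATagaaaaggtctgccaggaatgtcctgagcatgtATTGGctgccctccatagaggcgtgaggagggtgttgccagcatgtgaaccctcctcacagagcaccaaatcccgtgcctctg
Agxt2, first window, chr15:10358283-10358582, plus strand: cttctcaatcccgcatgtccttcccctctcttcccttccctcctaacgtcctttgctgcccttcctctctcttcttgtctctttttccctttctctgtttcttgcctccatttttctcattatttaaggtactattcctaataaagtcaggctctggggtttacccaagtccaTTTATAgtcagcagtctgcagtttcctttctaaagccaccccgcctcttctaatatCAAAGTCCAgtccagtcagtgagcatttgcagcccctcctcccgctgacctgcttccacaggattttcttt

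The windows of *Upb1* and *Cda* held different motifs. The *Upb1* window had 2 CCAAT matches, whose first bases lay at -71 and -33 from the start, a motif found in 37.4% of all 32851 windows. This window begins at 75406661, inside the gene as GENCODE M21 annotates it, from 75401115, so it is not the annotated 5' end. The *Cda* window had 1 GC box at -181 and the *Dpyd* window had 2, at -72 and -42, against 35.7% of all windows with at least 1. The *Agxt2* window held TATAAA on the reverse strand at -77 and CAAAGTCCA at -21, which 0.475% of all windows hold. *Upp2* has a pair of starts with unlike sequence. Its first window, at chr2:58567084-58567383, had 37 CpG dinucleotides, 4 GC boxes and 1 CCAAT match, while the second had 2 CpG and TATAAA at -29, a motif in 13.6% of windows. *Cda* had 18 CpG, *Dpyd* 11, *Upb1* 8 and the first *Agxt2* window 4, against a median of 7 over all windows. The *Tymp* window held 2 CCAAT matches, and each of the 3 *Upp1* windows held 1 GC box. A match is a description of the letters only, and the counts do not show which start was used.

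*Cda* was the most abundant member. Its gene (ENSMUSG00000028755) lies on the minus strand of chromosome 4, 138338424 to 138367992 (GRCm38, GENCODE M21). The level was 177, 192 and 168 FPKM in Control replicates 1, 2 and 3 and 135, 124 and 118 FPKM in KSPAPN replicates 1, 2 and 3. Every KSPAPN library was below every Control library, and both groups were tight, with coefficients of variation of 6.58% and 6.65%. The mean fell from 179 ± 11.8 to 126 ± 8.35 FPKM (SD, n = 3), a log2 fold change of -0.50 (SE 0.094) with an adjusted p of 0.0250 in edgeR's fit across all genes. Among 21995 protein-coding genes ordered by mean FPKM, *Cda* stood at place 211 in Control and 279 in KSPAPN. With a correction for GC content and transcript length its log2 fold change was -0.27 (adjusted p = 0.109), and the call was also lost with total counts only and on log2 FPKM with limma. Without Control replicate 1, Control replicate 2, KSPAPN replicate 2 or KSPAPN replicate 3 its adjusted p was 0.108, 0.0788, 0.0703 and 0.120.

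The uridine phosphorylases were far lower. *Upp1* (ENSMUSG00000020407, chromosome 11, 9118103 to 9136170, plus strand), the widely expressed form, had 2.31, 2.56 and 1.86 FPKM in Control and 2.28, 1.67 and 1.70 FPKM in KSPAPN, on 60 to 104 counts per library. The groups overlapped, and the log2 fold change was -0.24 (SE 0.24, adjusted p = 0.641). *Upp2* (ENSMUSG00000026839, chromosome 2, 58567298 to 58792971, plus strand) had 3.66, 3.36 and 3.55 FPKM in Control and 1.70, 2.92 and 2.53 FPKM in KSPAPN. The Control libraries lay close together, KSPAPN replicate 1 was lowest, and the groups did not overlap. Its log2 fold change of -0.56 (SE 0.17) did not pass in edgeR (adjusted p = 0.119) and did in DESeq2 (adjusted p = 0.0431).

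The level of *Upp2* relative to *Upp1* varied between pools. The ratio of their FPKM was 1.58, 1.31 and 1.91 in Control and 0.748, 1.74 and 1.49 in KSPAPN, so *Upp1* exceeded *Upp2* in KSPAPN replicate 1 alone. A two-sided exact permutation test of the log2 ratios gave p = 0.6.

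*Tymp* (ENSMUSG00000022615, chromosome 15, 89371931 to 89377039, minus strand) was at 1.30, 1.92 and 1.82 FPKM in Control and 1.71, 1.69 and 1.40 FPKM in KSPAPN. All KSPAPN libraries lay inside the Control range, and the log2 fold change was -0.063 (SE 0.25, adjusted p = 0.921). These values are uncertain. Of its exon bases, 42.0% are shared with *Sco2* on the same strand, which was listed with 0 counts, and 26.3% with *Ncaph2* on the other strand, which held 9061 counts against 385 for *Tymp*. The strandedness of the counting is not given in the sources used here.

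**Figure D1:**
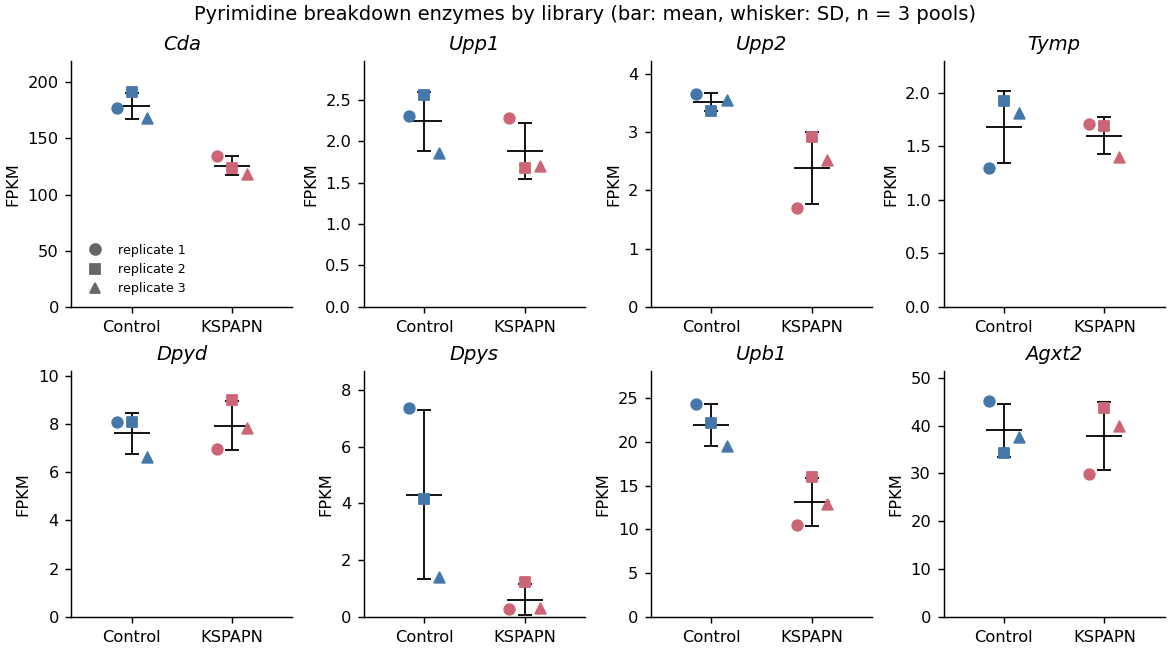
Level of the 8 members in FPKM (vertical axis, from 0) in the 3 Control and 3 KSPAPN libraries; points are libraries, shaped by replicate number, horizontal bars are means and whiskers SD (n = 3 pools). *Cda*, *Upp2*, *Dpys* and *Upb1* have every KSPAPN point below every Control point, and the other 4 members overlap.

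*Dpyd*, which codes for the rate-limiting dehydrogenase of the pathway, spans 870.8 kb of chromosome 3 (ENSMUSG00000033308, 118562129 to 119432924, plus strand). It had 8.08, 8.10 and 6.64 FPKM in Control and 6.95, 8.98 and 7.84 FPKM in KSPAPN. The lowest library was Control replicate 3, the highest was KSPAPN replicate 2, and the groups overlapped. The means were 7.61 ± 0.841 and 7.92 ± 1.02 FPKM (SD, n = 3), with a log2 fold change of 0.063 (SE 0.12, adjusted p = 0.814).

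*Dpys* (ENSMUSG00000022304, chromosome 15, 39768487 to 39857470, minus strand) was the member on which the pathway was selected, so its decrease is given as a description with no test. Its level was 7.37, 4.14 and 1.41 FPKM in Control replicates 1, 2 and 3, from 511, 269 and 93 counts. In KSPAPN replicates 1, 2 and 3 it was 0.287, 1.23 and 0.309 FPKM, from 25, 84 and 24 counts. All 3 KSPAPN libraries were below the lowest Control library, but KSPAPN replicate 2 was close to Control replicate 3. The spread within each group was wide, 5.21-fold between the highest and lowest Control library and 4.28-fold in KSPAPN, and the other members spanned at most 1.71-fold in either group. The fitted log2 fold change was -2.86 (SE 0.63), a 7.25-fold lower level. It ranged from -3.84 without KSPAPN replicate 2 to -2.22 without Control replicate 1.

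The place of *Dpys* among the decreases restates how the pathway was selected and supports nothing. By log2 fold change it was at place 3 of 344 genes that were lower at an adjusted p under 0.05 with a mean of at least 1 FPKM, a list it would leave under 7 of the alternatives, such as without Control replicate 1. *Gm4208*, with -4.06, and *Angptl7*, an angiopoietin-like secreted protein, with -3.40, came before it. *Serpina1a*, an alpha-1-antitrypsin gene with close copies that can share reads, followed with -2.81, and *Car3*, carbonic anhydrase 3, with -2.80. By mean level among protein-coding genes *Dpys* went from place 7386 in Control to 12000 in KSPAPN. *Gm16291*, annotated on the opposite strand, shared no exon bases with *Dpys* and had 0 counts.

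*Upb1* (ENSMUSG00000033427, chromosome 10, 75401115 to 75441679, plus strand), the enzyme after *Dpys* in the pathway, had 24.3, 22.1 and 19.5 FPKM in Control and 10.5, 16.0 and 13.0 FPKM in KSPAPN. The groups did not overlap, Control replicate 1 was highest and KSPAPN replicate 1 lowest. The mean fell from 22.0 ± 2.41 to 13.1 ± 2.74 FPKM (SD, n = 3). The log2 fold change was -0.74 (SE 0.14, adjusted p = 0.0266 in edgeR), a 1.67-fold lower level on 1662 to 3058 counts per library. The call was lost without Control replicate 1 (adjusted p = 0.141), Control replicate 2 (0.0777) or KSPAPN replicate 3 (0.123), and with limma on log2(FPKM + 1) or log2(FPKM + 0.1) (0.0746 and 0.0743), with the same direction each time.

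*Agxt2* (ENSMUSG00000089678, chromosome 15, 10358532 to 10410153, plus strand), downstream of the thymine branch, had 45.1, 34.2 and 37.6 FPKM in Control and 29.8, 43.6 and 40.0 FPKM in KSPAPN. KSPAPN replicate 1 was lowest and Control replicate 1 highest, and the other 4 libraries were mixed. The log2 fold change was -0.042 (SE 0.14, adjusted p = 0.906).

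The level of *Cda* was above that of *Agxt2*, *Agxt2* above *Upb1* and *Upb1* above *Dpyd* in all 6 libraries. Below them the Control means were 4.31 ± 2.98 FPKM for *Dpys*, 3.52 ± 0.151 for *Upp2*, 2.24 ± 0.356 for *Upp1* and 1.68 ± 0.335 for *Tymp* (SD, n = 3). *Dpys* overlapped both of its neighbours in that order, *Dpyd* and *Upp2*, across the Control libraries, and *Upp1* overlapped *Tymp*, while *Upp2* and *Upp1* did not overlap. *Dpys* was at place 5 of the 8 members in Control replicates 1 and 2 and at place 8 in Control replicate 3 and every KSPAPN library.

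Shares of the summed FPKM of the consecutive enzymes *Dpyd*, *Dpys* and *Upb1* describe each library, with no test, since the sum contains *Dpys*. *Dpys* held 18.5%, 12.1% and 5.13% of the sum in Control and 1.62%, 4.69% and 1.47% in KSPAPN. *Dpyd* held 20.3%, 23.6% and 24.1% in Control and 39.2%, 34.3% and 37.2% in KSPAPN, while its own level overlapped between groups. *Upb1* held 59.2% to 70.8% over the 6 libraries, with overlap.

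**Figure D2:**
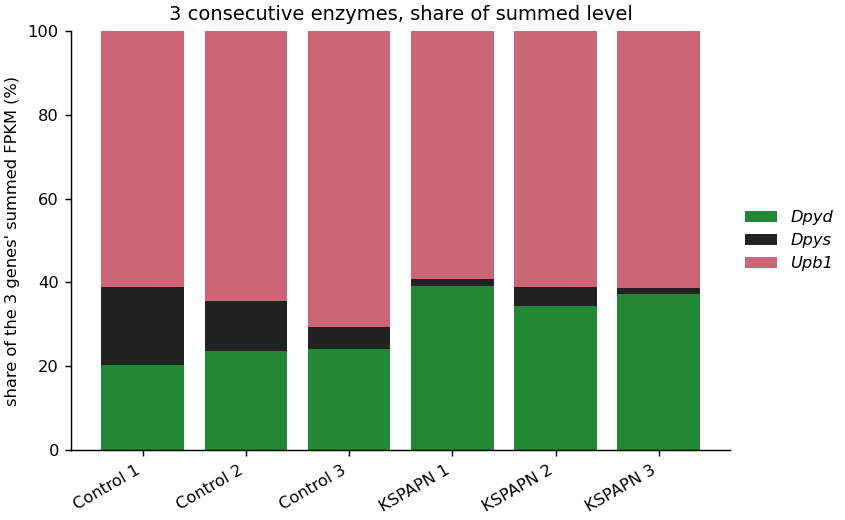
Share of the summed FPKM of *Dpyd*, *Dpys* and *Upb1* held by each gene (vertical axis, percent) in each of the 6 libraries. The *Dpyd* segment is 20.3% to 24.1% in Control and 34.3% to 39.2% in KSPAPN, and the *Dpys* segment is thinnest in KSPAPN replicates 1 and 3.

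Ratios within a library do not depend on its scaling. *Upb1* was at 3.01, 2.73 and 2.94 times the FPKM of *Dpyd* in Control and at 1.51, 1.78 and 1.65 times in KSPAPN. The ratio was lower in every KSPAPN library, by a mean of -0.81 on the log2 scale, and *Upb1* stayed above *Dpyd* in all of them. *Agxt2* was at 1.86, 1.55 and 1.93 times *Upb1* in Control and 2.84, 2.73 and 3.09 times in KSPAPN, 0.70 higher on the log2 scale. For each of these pairs the two-sided exact permutation test gave p = 0.1, the smallest that 3 libraries against 3 allow, and 0.15 after adjustment over the 3 pairs tested. *Dpys* was at 0.911, 0.512 and 0.213 times *Dpyd* in Control and at 0.0413, 0.137 and 0.0394 times in KSPAPN, given with no test.

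Of the 8 members, 7 had log2 fold changes below 0 against 48.1% of all genes tested, and their median was -0.37 against 0.012. In edgeR, 2 of the 7 members other than *Dpys* were lower and 0 higher at an adjusted p under 0.05, where 2.25% of all genes tested were lower and 0.393% higher. DESeq2 called *Cda*, *Upb1* and *Upp2* lower, and 0 higher, against 5.31% of genes lower and 1.29% higher over the table. Every KSPAPN library was below every Control library for 3 of those 7, *Cda*, *Upp2* and *Upb1*, and above for 0, against 13.1% and 11.4% of all genes tested. The unadjusted p in edgeR was under 0.05 for the same 3 genes, all lower, against 11.2% of all genes tested lower and 7.52% higher. Since the pathway was selected on this contrast, nothing is read from these counts.

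The members did not rank the libraries of a group alike. Over the 6 libraries, log2 CPM (counts scaled to library size) of *Dpys* correlated with those of *Upb1* at r = 0.96, of *Upp2* at 0.83, of *Cda* at 0.80, of *Agxt2* at 0.43 and of *Dpyd* at 0.31. The points share their libraries, depth and the group difference, so each r is a description. With the group means taken out, *Dpyd* followed *Dpys* at r = 0.92 and *Upb1* at 0.93, *Dpys* and *Upb1* had 0.88, and *Cda* and *Dpys* had 0.085. In both groups the library with less *Dpyd* than the rest, Control replicate 3 or KSPAPN replicate 1, was also the lowest of its group in *Dpys* and *Upb1*. *Upp2* went with *Agxt2* at 0.88 and against *Cda* at -0.74 on the same measure.

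Of 11161 protein-coding genes with a mean of at least 1 FPKM, those whose log2 CPM went most closely with *Dpys* were *1600014C10Rik* (r = 0.997), *Nme6* (0.997), *Ivd* (0.992), *Idh2* (0.991) and *Mettl7a1* (0.991). *Ivd* codes for a dehydrogenase of leucine breakdown and *Idh2* for the mitochondrial NADP-dependent isocitrate dehydrogenase. *Idh2* had 176, 163 and 151 FPKM in Control and 125, 143 and 126 FPKM in KSPAPN. *Ivd* had 98.5, 95.1 and 85.5 FPKM in Control and 70.7, 81.2 and 71.6 FPKM in KSPAPN. Both placed the 6 libraries in the same order as *Dpys* did, over a much narrower range. None of the 5 passed the test, with log2 fold changes from -0.35 to -0.28 and adjusted p from 0.120 to 0.284. The median r with *Dpys* over all 11161 genes was -0.0076 and the 95th percentile 0.882, and *Upb1* stood at place 89. This r includes the group difference, on which *Dpys* was selected, so genes that were lower rank high. With the group means taken out, *Upb1* stood at place 261, *Upp2* at 2161 and *Cda* at 4987 of 11161.

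**Figure D3:**
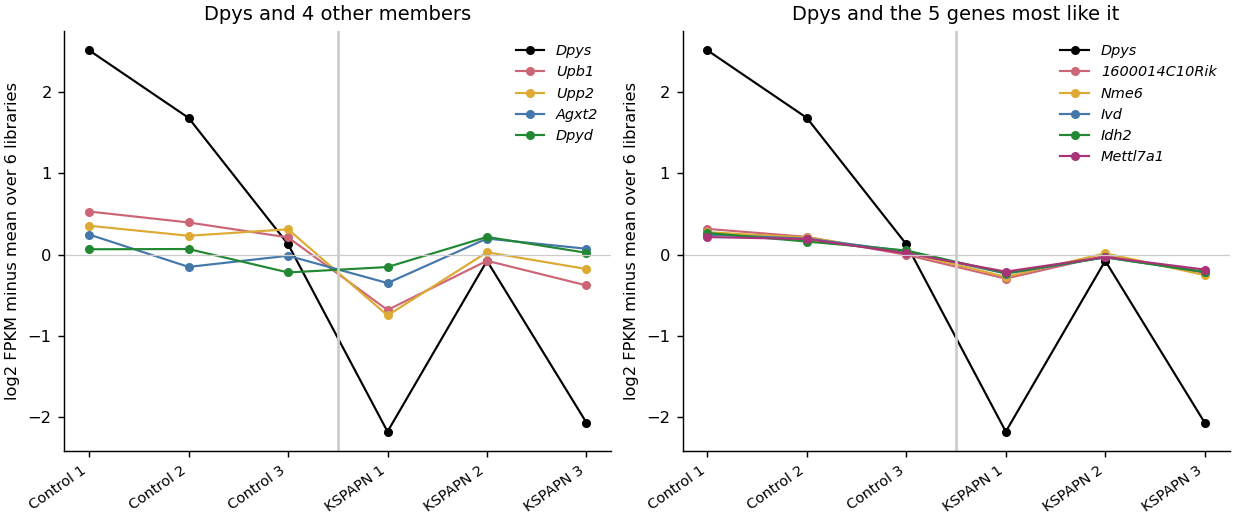
Log2 FPKM minus the gene's mean over the 6 libraries (vertical axis) for *Dpys* with 4 other members (left) and with the 5 genes most like it (right); lines join the points of a gene and the grey line parts the groups. *Dpys* spans a far wider range than any other gene drawn, and the 5 genes on the right bend at the same libraries.

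Other genes of pyrimidine metabolism were read from 9 lists of 53 genes, 45 of them tested. At an adjusted p under 0.05, *Slc28a1* and *Cndp2* were lower, *Umps* was higher and 42 did not pass, with a median log2 fold change of -0.026 and 23 values below 0 against 22 above. Over all genes tested, 2.25% were lower and 0.393% higher at that threshold, the median was 0.012 and 48.1% of values were below 0. *Slc28a1*, the concentrative nucleoside transporter 1 that carries pyrimidine nucleosides into proximal tubule cells, had 8.89, 7.54 and 6.52 FPKM in Control and 3.93, 5.10 and 4.20 FPKM in KSPAPN. The groups did not overlap, and the log2 fold change was -0.79 (SE 0.16, adjusted p = 0.0293). Its log2 CPM went with that of *Dpys* at r = 0.98, place 36 of 11161. This r includes the group difference on which *Dpys* was selected, so a gene that was lower ranks high. With the group means taken out, *Slc28a1* had r = 0.98 and place 23, as a description. The call was lost without Control replicate 1, Control replicate 2 or KSPAPN replicate 3 (adjusted p = 0.156, 0.0776 and 0.126). It was also lost with total counts only (0.0511), with the GC content and transcript length correction (0.0590) and with limma on log2(FPKM + 1) and log2(FPKM + 0.1) (0.0663 and 0.0639). The other 4 nucleoside transporters tested did not pass.

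*Umps*, whose product makes UMP in the last steps of pyrimidine synthesis, moved the other way. It had 10.5, 10.7 and 13.0 FPKM in Control and 17.0, 17.5 and 19.0 FPKM in KSPAPN, without overlap. The mean rose from 11.4 ± 1.38 to 17.8 ± 1.06 FPKM (SD, n = 3), a log2 fold change of 0.65 (SE 0.11, adjusted p = 0.0165). The other 5 genes of synthesis, *Cad*, *Dhodh*, *Ctps*, *Ctps2* and *Tyms*, did not pass, and the median of the list was -0.14. Without Control replicate 1, Control replicate 2 or KSPAPN replicate 3 the adjusted p of *Umps* was 0.0960, 0.0632 and 0.0744.

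Of 6 genes tested for the use of beta-alanine and beta-aminoisobutyrate, the end products of the pathway, only *Cndp2* passed. It codes for a cytosolic dipeptidase of the carnosinase family. Its level was 549, 738 and 422 FPKM in Control and 164, 252 and 236 FPKM in KSPAPN, well apart. The log2 fold change was -1.39 (SE 0.21, adjusted p = 0.0113), a 2.62-fold lower level, and leaving out Control replicate 1 or KSPAPN replicate 3 gave an adjusted p of 0.0529 and 0.0551, against 0.0510 and 0.0508 with limma on log2(FPKM + 1) and log2(FPKM + 0.1). *Abat*, which transaminates beta-alanine, was at 53.7 ± 4.57 FPKM in Control and 54.3 ± 3.28 FPKM in KSPAPN (SD, n = 3), with a log2 fold change of 0.023. *Gadl1* had 0 counts in all 6 libraries, and the median of the list was -0.0015.

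In the other 6 lists 0 of 28 genes tested passed in edgeR, and DESeq2 called 1 lower and 1 higher. Without adjustment, 5 of the 28 had p under 0.05 in edgeR, 4 of them with lower values. Among all genes tested, that last share was 11.2% for decreases and 7.52% for increases. After adjustment it was 2.25% and 0.393% in edgeR, and 5.31% and 1.29% in DESeq2. The counts in these lists are therefore not read as a difference from other genes. For the 10 salvage kinases the median log2 fold change was 0.031, and the most abundant, *Cmpk1*, had 0.20 (SE 0.11). *Dck*, deoxycytidine kinase, had 1.31, 1.34 and 1.46 FPKM in Control and 2.65, 2.10 and 1.95 FPKM in KSPAPN. Its groups did not overlap, and its adjusted p was 0.0808 in edgeR and 0.0431 in DESeq2. The 6 nucleotidases tested had a median of -0.11, with 0.11 (SE 0.093) for *Nt5c*, and the 5 deaminases and nucleotide pool hydrolases 0.099, with -0.33 (SE 0.13) for *Dctpp1*. The methylarginine hydrolases *Ddah1* and *Ddah2*, which clear substrates shared with *Agxt2*, had -0.061 and -0.046.

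The close relatives of *Dpys* and *Agxt2* did not pass either. The 3 tested paralogs of *Dpys*, *Crmp1*, *Dpysl2* and *Dpysl3*, all had values above 0 (median 0.24), with 0.32 (SE 0.16) for *Dpysl2*. Among the paralogs of *Agxt2*, *Phykpl* had -0.081 (SE 0.11). *Etnppl*, ethanolamine-phosphate phospho-lyase, had 1.97, 1.84 and 0.861 FPKM in Control and 0.437, 0.993 and 0.718 FPKM in KSPAPN. Control replicate 3 lay inside the KSPAPN range, as it lay nearest to it for *Dpys*, and the log2 fold change of -1.13 (SE 0.34) had an adjusted p of 0.109 in edgeR and 0.00896 in DESeq2. *Dck* and *Etnppl* were named after their values were seen.

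**Figure D4:**
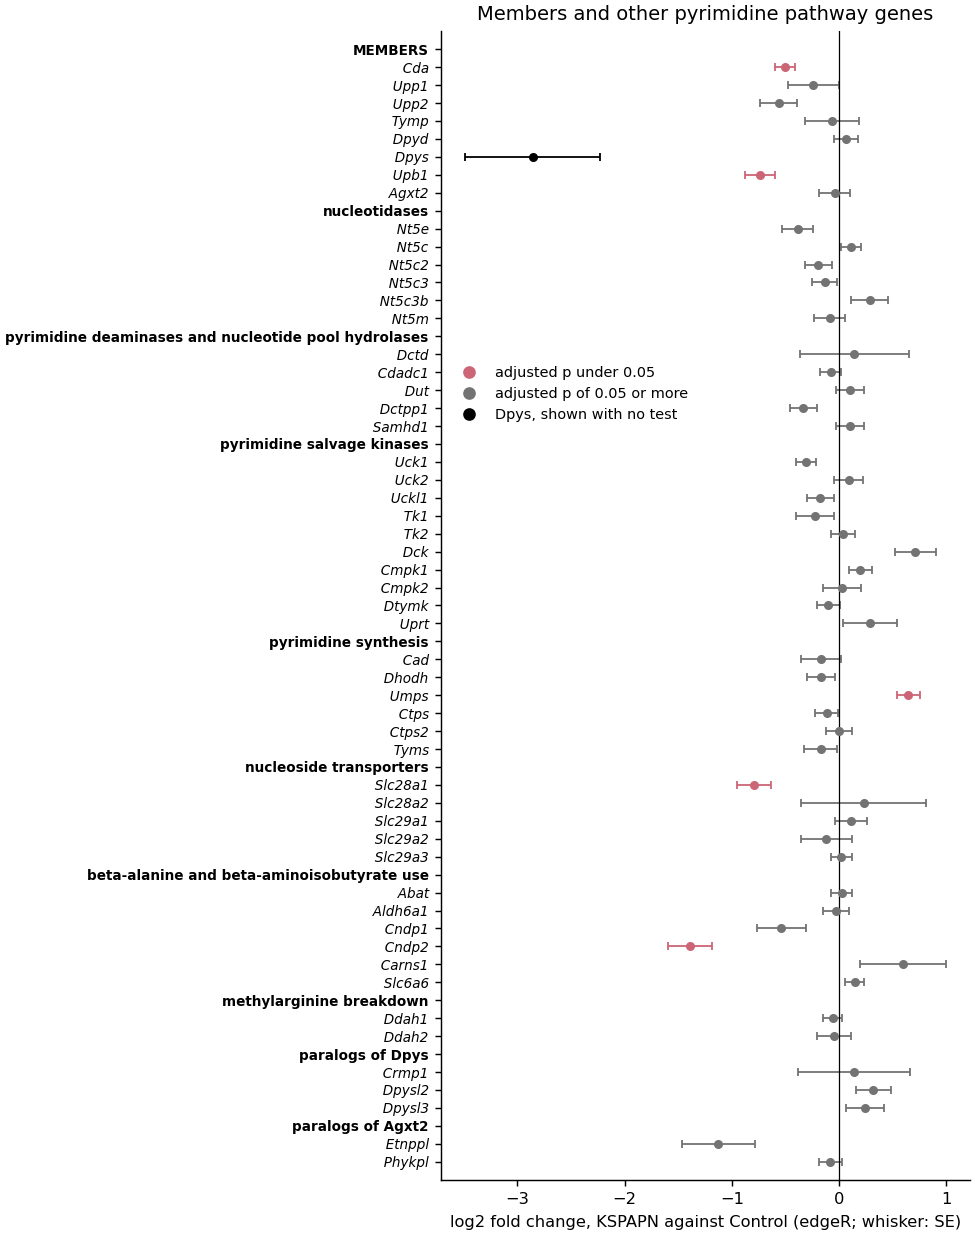
Log2 fold change of KSPAPN against Control (horizontal axis, edgeR) for the 8 members and the 45 tested genes of the 9 other lists; whiskers are SE (3 libraries per group), colour marks an adjusted p under 0.05 over all 16017 genes, and *Dpys* is drawn in black with no test. *Dpys* lies far to the left of the rest at -2.86, *Upb1*, *Cda*, *Slc28a1* and *Cndp2* are the coloured points below 0 and *Umps* the one above.

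Between the groups, markers of the proximal tubule went the same way as the members that were lower. Of 13 markers 12 had log2 fold changes below 0 (median -0.28), against 48.1% of all genes tested. *Slc22a6*, *Miox* and *Slc7a13* fell, where 2.25% of all genes tested were called lower, and *Hnf4a* had 0.034. Their summed level was 4325, 4021 and 3589 FPKM in Control and 2986, 3096 and 3124 FPKM in KSPAPN. Set against that sum, *Upb1* was at 5.62, 5.50 and 5.43 FPKM per 1000 marker FPKM in Control and 3.52, 5.16 and 4.15 in KSPAPN, still without overlap. *Cda* was at 40.9, 47.7 and 46.9 in Control and 45.1, 40.0 and 37.8 in KSPAPN, now with overlap. *Dpys* was at 1.70, 1.03 and 0.394 in Control and 0.0960, 0.397 and 0.0990 in KSPAPN, where KSPAPN replicate 2 just passed Control replicate 3. *Dpyd* was then higher in every KSPAPN library, at 1.87, 2.01 and 1.85 in Control and 2.33, 2.90 and 2.51 in KSPAPN. Since the sum itself was lower in every KSPAPN library, a gene whose own level does not change comes out higher on this scale. The largest parts of the sum were *Slc34a1* and *Miox*, the latter called lower. A share over all genes on this scale is not given, so nothing is read from the overlaps. The part of the markers in the results was not tested.

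Of 10 genes known to be higher in male mouse kidney, 4 fell, among them *Cyp7b1* and *Slc7a13*, the latter also a proximal tubule marker. All 10 had values below 0 (median -0.67). Over all genes tested, 2.25% were called lower and 48.1% had values below 0. Of 4 genes higher in female kidney, *Cyp4a14* fell and all 4 were below 0 (median -1.49). *Slc7a12* had 12.6, 0.729 and 2.71 FPKM in Control and 0.962, 1.26 and 1.30 FPKM in KSPAPN. *Prlr* had 3.56, 0.387 and 1.29 FPKM in Control and 0.694, 1.19 and 1.15 FPKM in KSPAPN. Both were highest in Control replicate 1, *Cyp4a14* in Control replicate 2 and *Abcc3* in Control replicate 3. The part of these sex-biased genes in the members' values was not tested. Of 11 markers of the thick ascending limb, distal tubule and collecting duct, *Slc12a1* rose (median -0.045), and 3 others had lower values at an unadjusted p under 0.05, 1 of them called lower by DESeq2. The 6 glomerulus markers had values above 0 (median 0.32), and 0 passed in edgeR or DESeq2, with 1 at an unadjusted p under 0.05. In the hepatocyte list 0 of 6 tested markers passed in edgeR, where 2 had lower values at an unadjusted p under 0.05, and DESeq2 called 1 lower, with sums of 23.9 to 32.9 FPKM in Control and 15.7 to 32.0 FPKM in KSPAPN. The immune cell markers (5 tested), adipocyte markers (1 tested) and tubular injury genes (4 tested) had 0 calls in edgeR or DESeq2 and 0 at an unadjusted p under 0.05.

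**Figure D5:**
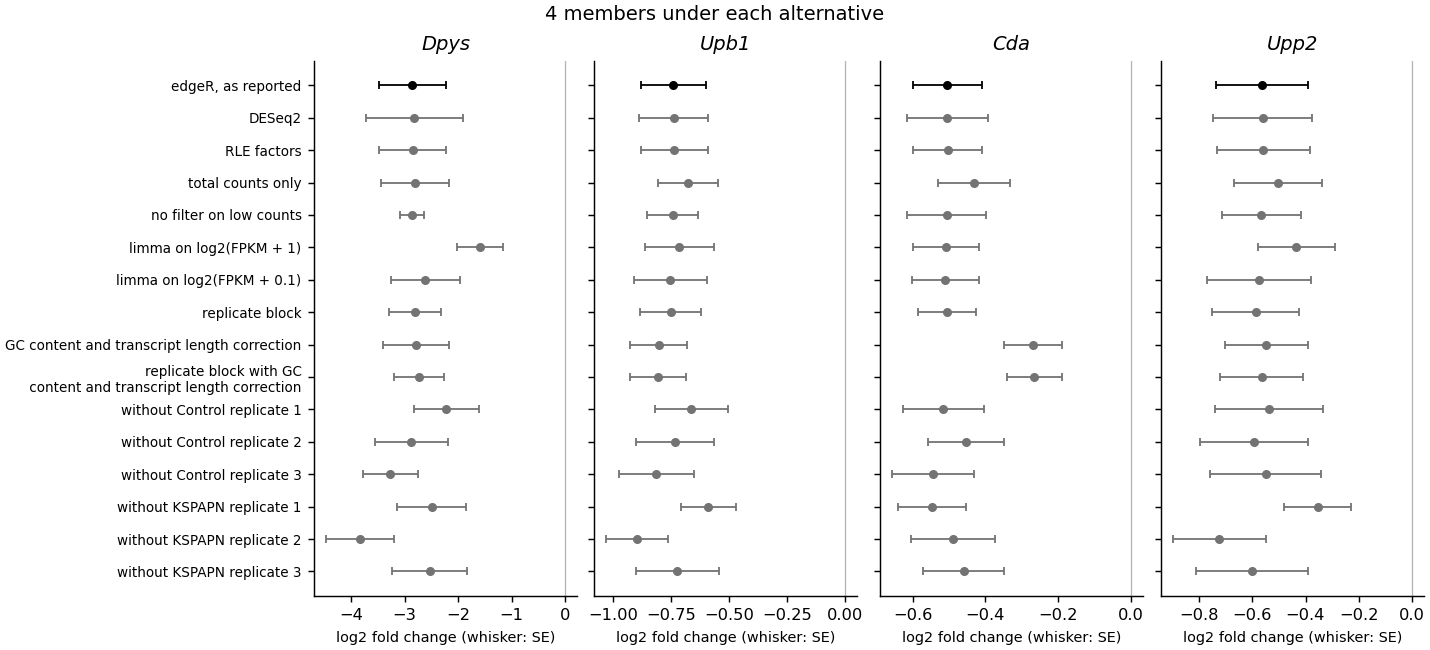
Log2 fold change of *Dpys*, *Upb1*, *Cda* and *Upp2* (horizontal axes, each with its own scale; whiskers are SE) as reported and under each other way of processing or with a library left out. Every point lies below 0; *Dpys* is nearest to 0 on log2(FPKM + 1), at -1.60, and *Cda* with the GC content and transcript length correction, alone or with the replicate block.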

How the data were processed

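Poly(A) RNA of 6 mouse kidney pools, 3 Control and 3 KSPAPN, was sequenced, and samples were grouped by their labels. The authors deposited 1 table with raw read counts per gene, without normalization, and FPKM, scaled by gene length and library size. The submitters' processing notes name STAR 2.5, HTSeq 0.6.1, TopHat, DESeq2 and edgeR without roles. The sources used here give no genome build, annotation or strandedness. The gene lengths implied by the deposited FPKM equalled the GENCODE M21 exon unions (GRCm38) for all 8 members. Of 54532 identifiers, 54495 matched M21. No column lacked a sample (0 such columns).

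Counts were fitted with edgeR 4.0.16 in R 4.3.3 (TMM factors, minimum count 10, minimum total 15, two-sided quasi-likelihood test, Benjamini-Hochberg adjustment over 16017 genes, common dispersion 0.0225). Levels are FPKM, and differences are edgeR's log2 fold changes. Precision rests on 3 pools per group, and reads have no molecular identifiers. Nothing says beyond the pools how samples were kept apart, so p-values measure the spread between these libraries. The alternatives were DESeq2 1.42.0, RLE factors, total counts only, no filter, limma 3.58.1 on log2(FPKM + 1) and log2(FPKM + 0.1), the replicate number as a block, a correction for GC content and transcript length (natural splines, 5 degrees of freedom, genes with mean log2 CPM above 3), that correction with the block, and leaving out each library. On simulated counts of 16017 genes with 200 changed, 3 libraries against 3, edgeR found 94% of the changed genes at a false share of 6.93%, and DESeq2 found 88.5%. The share found at the size and spread of the members' own differences was not tested. Ratios were compared by two-sided exact permutation tests over 20 arrangements. Python 3.11.15, pandas 2.3.3 and matplotlib 3.10.9 made the tables and plots.

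The members, the lists and the tests were chosen with earlier results of these data known. Genes were named if they were members, passed at an adjusted p under 0.05 in a pyrimidine list or had the highest mean FPKM of a list without such a gene, were among the 5 most like *Dpys*, or stood next to *Dpys* in the order of decreases. Some other genes of the pyrimidine lists, such as *Abat* and *Gadl1*, are named outside this rule. Of the marker lists of kidney segments, hepatocytes, other cells and sex-biased genes, only some genes are named, and *Adipoq* checks the transgene. Raw reads were not used here.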

Additional observations from a re-analysis of the deposited data

How the results depend on the processing

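*Dpys*, *Upb1*, *Cda* and *Upp2* were lower under every alternative run. For named genes other than *Dpys*, 195 of 240 values under an alternative kept direction and side of the threshold, 31 kept the direction only (28 lost the call and 3 gained it) and 14 changed sign. Genes without a call had none to lose, so the 195 say little about the calls. The 28 lost calls were 9 for *Cda*, 7 for *Slc28a1*, 5 for *Upb1*, 4 for *Cndp2* and 3 for *Umps*. These genes kept their calls under 6, 8, 10, 11 and 12 alternatives. Values near 0 changed sign: *Tymp* to 0.0098 with total counts only, 0.16 with the GC content and transcript length correction and 0.19 with that correction and the replicate block, *Agxt2* to 0.017 with total counts only and 0.0023 with correction and block, *Dpyd* to -0.0070 with the correction and -0.0051 with correction and block, and *Ddah1* to 0.0080 with total counts only. With a library left out they ranged from -0.22 to 0.045 (*Tymp*), -0.15 to 0.12 (*Agxt2*) and -0.029 to 0.16 (*Dpyd*).

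All genes called lower and higher numbered 744 and 181 with DESeq2, 1038 and 301 without the filter (29418 genes tested), 118 and 10 with limma on log2(FPKM + 1), and 109 and 10 on log2(FPKM + 0.1). With total counts only 195 were lower, and with the correction 97 were higher. Members other than *Dpys* called lower numbered 1 with total counts only, with the correction, and with correction and block, and 0 with either limma fit. Other pyrimidine genes called lower numbered 1 with total counts only and with the correction, 5 without the filter and 0 with limma, and those called higher 2 with DESeq2, without the filter, and with correction and block. The members' median was -0.16 with the correction, alone or with the block. Leaving out a library gave 34 to 571 lower and 5 to 162 higher genes, 0 to 2 members lower and 0 to 0 higher, 0 to 3 pyrimidine genes lower and 0 to 1 higher, and medians from -0.45 to -0.30. Without KSPAPN replicate 1 they were 571 and 162, without Control replicate 1 34 and 5, and 60 and 5 when KSPAPN replicate 3 was left out. The cause was not tested.

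Whether same-numbered libraries share more than a number is not given in the sources used here. Their deviations from the group means correlated at 0.054, 0.15 and 0.17, against -0.18 to 0.021 for libraries of unlike number. Every library correlated best with its own number. With the replicate block, 705 genes were lower and 224 higher, and with block and correction 187 were higher. Depth limits *Upp1*, *Tymp* and, in KSPAPN, *Dpys*, at 24 to 104 counts per library.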
